A study of Mus musculus with 9 samples.

Results

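Promoters shared by coding genes that lie head to head were examined for H3K27ac and H3K4me1 in primary oviductal muscle cells. A head-to-head pair was a pair of protein-coding genes on opposite strands of chromosomes 1 to 19 that point away from each other, with gene starts at most 1000 bp apart and gene bodies that do not overlap. The region of a pair was the span between its 2 starts plus 1 kb on either side. By this rule 734 regions were found among 20093 coding promoter regions, counted as 1 region per pair and 1 window per remaining gene. They held 1448 of 20807 coding genes (6.96%). Of the pairs, 40 shared a gene with another pair, so that neighbouring regions could be crossed by the same peak.

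Genes arranged in this way are transcribed outwards from a single stretch of DNA, a bidirectional promoter. Such promoters are usually CpG islands, serve many housekeeping genes, and are known for pairs in which a DNA repair gene faces an unrelated neighbour. H3K27ac is a histone mark of active promoters and enhancers. H3K4me1 marks enhancers and the flanks of active promoters, and is replaced by H3K4me3 close to an active start.

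The cells came from WT mice aged 8 to 12 weeks on Day 2 of pregnancy, after mating with stud males. No other genotype or time was analysed here. Oviducts were digested, filtered and plated for some hours before fixation, and each library used 50000 cells. In ChIC-seq an antibody directs protein A fused to MNase, which cuts chromatin near the mark. There were 3 libraries for H3K27ac, 3 for H3K4me1 and 3 IgG controls, which entered only as the controls of the peak calls. The labels do not say whether replicates came from separate mice, so the spread between them may be technical. H3K27ac libraries held 40551842 to 42040809 fragments, H3K4me1 libraries 41891318 to 78891920 and IgG libraries 3110985 to 3713369. The peak lists were permissive: they held 93684 to 152889 peaks per replicate.

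The labelled cell type was checked at promoter windows of marker genes. Of 8 smooth muscle genes, Acta2 and Des had H3K27ac in all 3 replicates, Tagln and Smtn in 2, and Cnn1 and Lmod1 in 1. Myh11 and Actg2, which encode smooth muscle myosin heavy chain and gamma actin, had H3K27ac in none. All 7 stromal genes, among them Col1a1, Dcn and Pdgfra, had H3K27ac in all 3. None of 7 epithelial genes had H3K27ac in all 3, and among 5 blood genes only Ptprc did. None of 4 endothelial genes had it in all 3, but Tek and Cdh5 had it in 2. Over all coding promoter regions 42.0% had H3K27ac in all 3 replicates, beside 2 of the 8 smooth muscle genes and all 7 stromal genes. The smooth muscle list was thus marked only in part and below this share, while the stromal list was marked throughout. The part of stromal cells in the results below was not tested.

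The distance between the 2 starts was short. It ranged from 1 to 987 bp with a median of 128 bp, and was under 100 bp in 305 pairs, from 100 bp to less than 300 bp in 297 and 300 bp or more in 132. The sequences between the starts of 9 pairs are given here because they show how different the DNA of these promoters can be. They were chosen from pairs described below: those with the strongest or widest peaks, those with 1 mark, those with none, and a collagen pair with low coverage of both marks. Each is the plus strand of GRCm38 from the base after the start of the left gene to the base before the start of the right gene, so no base belongs to either gene. Capitals mark matches, on either strand, to 5 short motifs. The NF-Y box was CCAAT and the box of Sp1 was GGGCGG. The site of the ETS family was CCGGAAG. The site of NRF1 was GCGCATGC. The TATA box was searched as TATAAA. A match is a description of the letters and does not show binding.
Hjurp/Trpm8, chr1:88277634-88277660: ggggagggacgagagggagggtccgcc
Rita1/Ddx54, chr5:120612590-120612738: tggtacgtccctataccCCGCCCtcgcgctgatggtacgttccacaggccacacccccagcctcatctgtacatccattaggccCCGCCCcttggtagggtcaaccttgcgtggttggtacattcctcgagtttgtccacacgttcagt
Mrps12/Sars2, chr7:28741821-28741991: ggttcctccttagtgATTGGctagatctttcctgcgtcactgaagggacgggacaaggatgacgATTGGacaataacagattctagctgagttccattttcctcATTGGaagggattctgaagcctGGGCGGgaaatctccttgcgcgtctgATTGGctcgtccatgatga
Brca1/Nbr1, chr11:101551956-101552148: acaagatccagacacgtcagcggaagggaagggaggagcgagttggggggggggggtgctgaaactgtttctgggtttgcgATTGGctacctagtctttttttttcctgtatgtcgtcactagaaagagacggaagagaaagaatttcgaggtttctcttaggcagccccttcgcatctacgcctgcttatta
Col4a4/Col4a3, chr1:82586850-82586920: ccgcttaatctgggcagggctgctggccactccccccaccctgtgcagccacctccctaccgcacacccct
Hist1h2bf/Hist1h2ad, chr13:23574197-23574380: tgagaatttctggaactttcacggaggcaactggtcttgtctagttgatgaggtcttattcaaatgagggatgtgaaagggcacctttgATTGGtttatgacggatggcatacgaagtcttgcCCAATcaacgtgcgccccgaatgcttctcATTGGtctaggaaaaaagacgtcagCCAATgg
Ppp1r3d/Fam217b, chr2:178414473-178414523: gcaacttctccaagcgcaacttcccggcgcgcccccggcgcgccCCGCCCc
Best1/Rab3il1, chr19:10001634-10001668: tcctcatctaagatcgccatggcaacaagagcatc
Dgcr2/Tssk2, chr16:17898563-17898636: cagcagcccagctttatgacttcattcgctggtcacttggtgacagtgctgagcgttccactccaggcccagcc
The gap of the histone pair held 4 CCAAT boxes in 184 bp and that of Mrps12/Sars2 held 4 CCAAT boxes and 1 Sp1 box in 171 bp. The gaps of Hjurp/Trpm8, Col4a4/Col4a3, Best1/Rab3il1 and Dgcr2/Tssk2 held none of the 5 motifs.

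Head-to-head genes differed in base composition from the other 19341 coding genes, which is a property the rule did not use. A CpG-rich start, with at least 50% GC and a CpG observed over expected ratio of at least 0.6 within 500 bp either side, was found at 83.1% of head-to-head genes and 42.9% of the others. The median GC was 59.9% and 54.5%, and the median CpG ratio 0.777 and 0.53. Each motif was searched on both strands from 250 bp upstream to 50 bp downstream of the start. CCGGAAG was present at 27.6% of head-to-head genes, 9.81% of other genes, 17.2% of other genes with a CpG-rich start, and 11% of all coding genes. GGGCGG was present at 68.9%, 41.9%, 71.8% and 43.8%, and GCGCATGC at 6.91%, 3.21%, 5.92% and 3.46%. CCAAT was present at 43.6%, 38.3%, 36.9% and 38.6%, and TATAAA at 4.14%, 13.4%, 6.1% and 12.7%. At the genes of the 582 pairs with 2 CpG-rich starts, the ETS motif was present at 30.5%, the NF-Y box at 44.2% and the NRF1 motif at 8.11%, each more often than at other genes with a CpG-rich start. The Sp1 box was present at 73.4%, near the share of those genes, and the TATA box at 3.49%, less often. The windows of the 2 genes of a pair overlap, so that a match can count for both, and the shares carry no test. Because CpG content differs so much, the main comparisons of the marks below are also given between CpG-rich starts only, which kept 582 pairs and 8298 other promoters.

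The first question was whether these promoters carried H3K27ac more often. A peak of at least 1 bp overlap was present at 91.8%, 91.8% and 89.8% of the pairs in replicates 1, 2 and 3, and at 49.8%, 48.9% and 47.8% of the other promoters. All head-to-head values lay above all others. The means were 91.1 ± 1.18% and 48.9 ± 1.04% (SD, n = 3), a difference of 42.3 ± 0.507 percentage points. An exact two-sided sign-flip permutation test over the 3 lists gave p = 0.25, the smallest that 3 lists allow, and 0.288 after adjustment over 15 tests, so this design cannot reach 0.05. Between CpG-rich starts the difference was smaller, at 16.9, 16.6 and 15.7 points in the 3 replicates, with a mean of 16.4. CpG-rich pairs then had a peak in 96%, 96.2% and 93.8%, against 79.2%, 79.6% and 78.1% of CpG-rich others. The region of a pair is longer than the window of a single gene by the distance between the starts, which gives a peak more room to touch it. With each head-to-head gene measured in a window of its own, the difference was 42.1 points for H3K27ac and 23.1 for H3K4me1, and between CpG-rich starts 16.3 and 7.2 points, the latter setting chosen after seeing the data.

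H3K4me1 was present at fewer pairs. Its peaks touched 63.9%, 61.7% and 61.3% of the regions in replicates 1, 2 and 3, against 38.8%, 35.5% and 35% of the other promoters. The groups again did not overlap. The means were 62.3 ± 1.39% and 36.4 ± 2.1% (SD, n = 3), a difference of 25.9 ± 0.712 points with an exact sign-flip p of 0.25 (adjusted p = 0.288). The difference fell to 10.1 points between CpG-rich starts, to 10.9 with only peaks of −log10 p at least 1.3, to 13.5 with 250 bp around the starts, and to 8.58 where peaks had to cover at least 50% of the region. The excess was larger for H3K27ac than for H3K4me1 by 16.4 points. Dividing the 6 lists into 3 and 3 in all 20 ways (exact permutation test) gave p = 0.1, which no division can go below (adjusted p = 0.288). The gap between the marks was 6.31 points between CpG-rich starts, 10.8 with 2 kb flanks, 31.3 with the stricter p-value, 31.7 with 250 bp flanks and 32.1 where peaks had to cover 50% of the region.

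**Figure D1:**
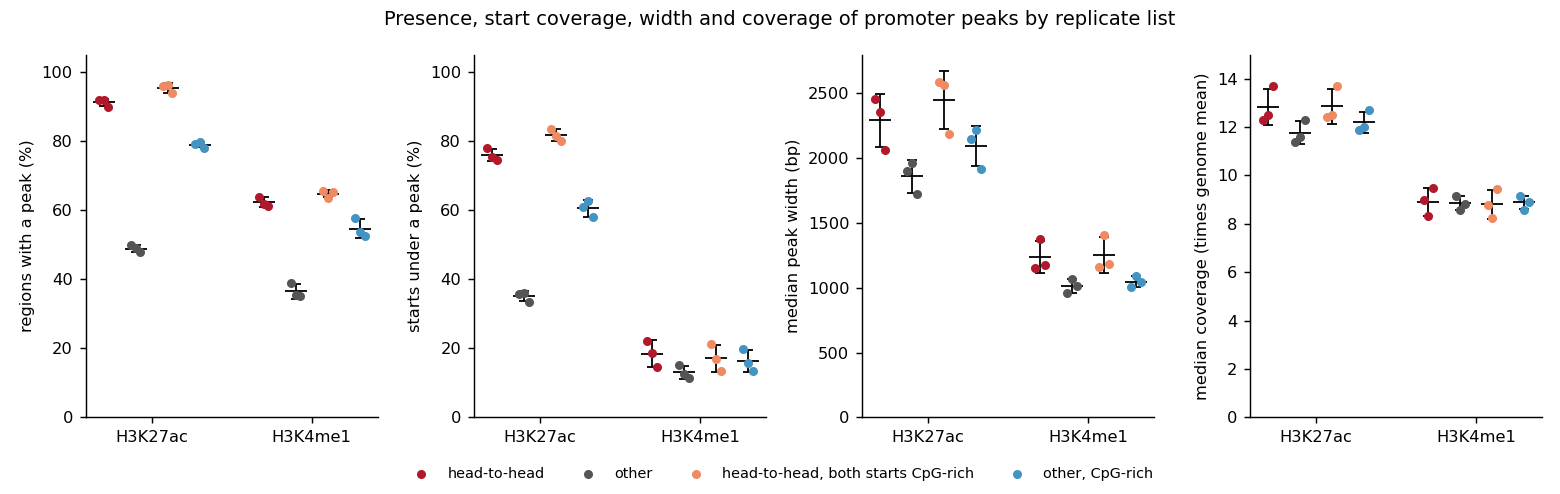
Each panel plots 1 measure in the 3 replicate lists of each mark (points), with the mean and SD (bars), for head-to-head pairs, other coding promoters, and both restricted to CpG-rich starts. From left to right the y axes are regions with a peak (%), starts under a peak (%), median peak width (bp) and median coverage (times the genome mean). Presence of H3K27ac was 91.1% at the pairs and 48.9% at others, and the coverage panels show the smallest separation.

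Both marks were also found in all 3 replicates more often at the pairs. H3K27ac was found in all 3 replicates at 628 of 734 pairs (85.6%), while 42.0% of all coding promoter regions met this rule, and at 7786 of 19341 others (40.3%). Among CpG-rich starts the shares were 90.5% of the pairs and 70.5% of the others. Only 37 pairs (5.04%) had it in no replicate, against 42.1% of the others. Of the regions with the mark in at least 1 list, 90.1% had it in all 3 at the pairs and 69.6% elsewhere. H3K4me1 was spread more evenly over 0, 1, 2 and 3 replicates, with 124, 145, 168 and 297 pairs. The 297 pairs in all 3 were 40.5%, where 21.5% of all regions met the rule. Among CpG-rich starts 42.4% of the pairs and 31.6% of the others did. Of the regions with any H3K4me1 peak, 48.7% had it in all 3 lists at the pairs and 40.1% elsewhere, so presence of this mark at a given pair often rested on 1 or 2 lists.

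**Figure D2:**
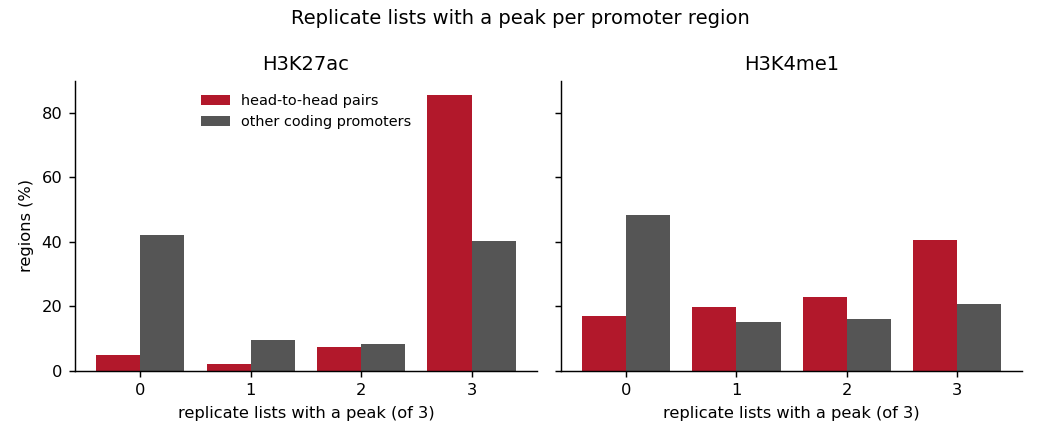
Bars give the share of regions (%) with a peak in 0, 1, 2 or 3 of the 3 replicate lists of H3K27ac (left) and H3K4me1 (right), for 734 head-to-head pairs and 19341 other coding promoters. For H3K27ac 85.6% of the pairs stand in the bar for 3 lists, and for H3K4me1 40.5% do.

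Both marks were present in all 6 replicate lists at 283 pairs (38.6%), where 18.1% of all regions met this rule. Between CpG-rich starts the shares were 41.1% of the pairs and 28.6% of the others. This count depended strongly on how a peak was defined: it was 30 with −log10 p of at least 1.3, 27 where peaks had to cover at least 50% of the region, and 79 with 250 bp in place of 1 kb around the starts. H3K27ac in all 3 lists with H3K4me1 in none was found at 70 pairs (9.54%), where 5.31% of all regions met it. Among CpG-rich starts the shares were 9.79% and 9.6%. The opposite pattern, H3K4me1 in 3 and H3K27ac in none, was found at 1 pair (0.136%), with 0.557% of all regions. No peak in any of the 6 lists was found at 29 pairs (3.95%), with 35.7% of all regions, and at 1.37% of CpG-rich pairs and 9.34% of CpG-rich others.

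Among the pairs themselves, CpG content went with the marks. H3K27ac was present at 95.4 ± 1.34% of the 582 pairs with 2 CpG-rich starts, 90.6 ± 2.68% of the 57 with 1, and 65.6 ± 2.43% of the 95 with none (SD, n = 3 lists). The corresponding shares for H3K4me1 were 64.7 ± 1.01%, 52 ± 5.64% and 53.7 ± 5.86%. The 95 pairs without a CpG-rich start nevertheless carried H3K27ac more often than other promoters without one, of which 26.2 ± 1.45% had a peak. Pairs with a CCGGAAG match at either gene had H3K27ac in all 3 lists at 218 of 236 (92.4%), and those without at 410 of 498 (82.3%). For H3K4me1 the shares were 47.9% and 36.9%. For GCGCATGC they were 93% of 57 and 84.9% of 677 for H3K27ac, but 33.3% and 41.1% for H3K4me1. For the NF-Y, Sp1 and TATA boxes, in this order, the H3K27ac shares were 87.3%, 86.4% and 87.5% with a match and 83.8%, 82.5% and 85.4% without. The motif shares were not split by CpG content, which also went with the marks, so the part of each was not tested. These shares are descriptions of regions and carry no test.

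The starts themselves were then compared. H3K27ac peaks lay over 78%, 75.3% and 74.5% of the starts of head-to-head genes in replicates 1, 2 and 3, and over 35.8%, 36.1% and 33.3% of the starts of other genes. The difference was 40.9 ± 1.51 points (SD, n = 3; exact sign-flip p = 0.25, adjusted p = 0.288), and 21.2 between CpG-rich starts. H3K4me1 peaks lay over 22.2%, 18.5% and 14.6% of head-to-head starts and 15%, 12.6% and 11.4% of the others. The difference of 5.43 ± 2.09 points (SD, n = 3) had the same exact p of 0.25, and it nearly vanished between CpG-rich starts, at 1.45, 1.2 and 0.0135 points in the 3 replicates. It was 1.59 points with only peaks of −log10 p at least 1.3. At the start, then, the pairs were distinguished by H3K27ac and hardly by H3K4me1, with 35.5 points between the 2 differences (exact permutation p = 0.1, adjusted p = 0.288), and 20.3 between CpG-rich starts.

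Comparing the start with a point 1 kb downstream in the same gene gave opposite courses for the marks. For H3K27ac the share at the start over the share downstream was 1.5 ± 0.117 at head-to-head genes and 1.15 ± 0.0159 at others (SD, n = 3), with a ratio between them of 1.31, 1.21 and 1.39 in the replicates. For H3K4me1 it was 0.578 ± 0.139 and 0.747 ± 0.0971, with a ratio between them of 0.853, 0.767 and 0.681. Relative to this point, H3K27ac was more centred on the start at the pairs in every list, and H3K4me1 was lower there in every list. Between CpG-rich starts the mean ratios were 1.28 and 0.842. The H3K4me1 result depended on the point chosen: against a point 2 kb downstream its ratio was 0.996 (exact sign-flip p = 1), and that of H3K27ac 1.69. With only peaks of −log10 p at least 1.3 the H3K4me1 ratio was 0.802 (exact sign-flip p = 0.5). The exact permutation p for the difference between marks was 0.1 (adjusted p = 0.288).

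The profile around the start showed the form of the domain. At other genes both marks leaned into the gene: 1.5 kb upstream H3K4me1 covered 8.89 ± 0.0231% of other genes and 1.5 kb downstream 19.9 ± 0.4%, an upstream to downstream ratio of 0.456, 0.439 and 0.446 in the 3 replicates. At head-to-head genes the shares were 32.5 ± 2.33% and 31.9 ± 2.02%, with ratios of 1.01, 1.04 and 1.01. At the start itself 18.4 ± 3.8% was covered by H3K4me1. For H3K27ac the ratios at 1.5 kb were 1.17, 1.19 and 1.17 at head-to-head genes and 0.508, 0.494 and 0.485 at others. Restricting the others to CpG-rich starts left their ratios at 0.492 to 0.506 for H3K27ac and 0.414 to 0.435 for H3K4me1. Both genes of each pair enter the profile, and the upstream side of each is the body of its partner, so ratios near 1 at the pairs follow from the construction and are no result about single pairs. Further into the gene, the genes of the pairs with 2 CpG-rich starts were set beside CpG-rich others. H3K4me1 covered 23.7 ± 2.39% of the former and 16.7 ± 2.49% of the latter at 500 bp downstream, and 35.1 ± 1.93% and 28.1 ± 0.483% at 1 kb. At 1.5 kb the shares were 35.8 ± 2.19% and 34.3 ± 1.18%, which differed by less than their spread. At 3 kb the pairs had the lower share, 19.9 ± 1.38% against 26.1 ± 0.616%. For H3K27ac the shares were 75.8 ± 2.98% and 62.7 ± 2.43% at 500 bp, and 25.4 ± 2.54% and 29.5 ± 1.98% at 2 kb (SD, n = 3, with no test).

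**Figure D3:**
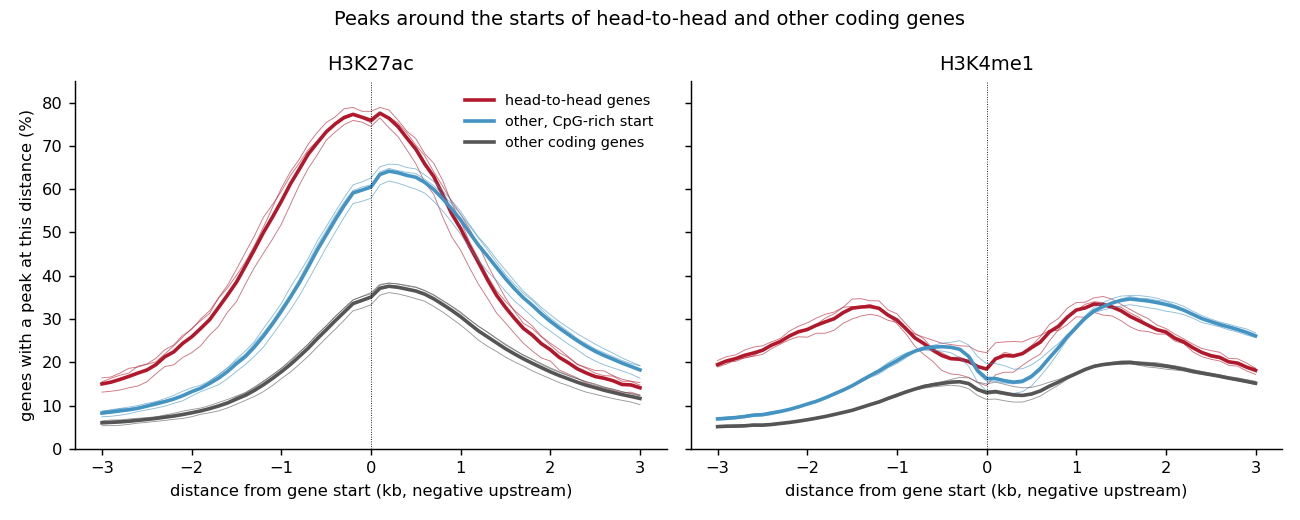
The y axis gives the share of genes (%) with a peak at each distance from the gene start, in kb on the x axis with upstream negative, for H3K27ac (left) and H3K4me1 (right). Thin lines are the 3 replicate lists and thick lines their mean, for 1448 head-to-head genes, 19341 other coding genes and the 8298 of these with a CpG-rich start. Head-to-head genes have H3K4me1 at 32.5% and 31.9% at 1.5 kb upstream and downstream, near-equal because both genes of a pair are counted, and other genes have 8.89% upstream and 19.9% downstream.

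The arrangement of the peaks over the 2 starts was recorded for each pair. A single H3K27ac peak lay over both starts at 556, 537 and 529 of the 734 pairs in replicates 1, 2 and 3, or 73.7 ± 1.84% (SD, n = 3), and at 406 pairs in all 3 lists. As a measure of the same kind, a single peak covered the start and the point 128 bp upstream at 33.2 ± 1.62% of other genes and 58.1 ± 2.51% of those with a CpG-rich start. Separate H3K27ac peaks on both sides were found at 37 to 43 pairs (5.36 ± 0.439%), against 2.94 ± 0.146% of others and 5.05 ± 0.376% of CpG-rich others. A peak on 1 side only was found at 81 to 92 (12 ± 0.866%), against 12.9 ± 0.737% of others. Of the pairs with 2 CpG-rich starts, 80.4 ± 1.81% had a single peak over both starts, 5.38 ± 0.198% separate peaks and 9.56 ± 1.05% a peak on 1 side only, the last against 15.9 ± 1.37% of CpG-rich others. H3K4me1 was arranged otherwise. A single peak lay over both starts at 141, 124 and 97 pairs (16.4 ± 3.03%), separate peaks lay on both sides at 96, 118 and 110 (14.7 ± 1.52%), and the mark lay on 1 side only at 230, 209 and 242 (30.9 ± 2.27%). Most pairs with peaks on both sides had both starts and the midpoint of the gap free of H3K4me1, namely 84, 108 and 101. Other promoters had separate H3K4me1 peaks on both sides at 5.18 ± 0.23%, and CpG-rich others at 9.45 ± 0.659%. Of the pairs with 2 CpG-rich starts 16.7 ± 1.5% had such peaks. A single H3K4me1 peak was found at 15.4 ± 3.35% of these pairs and 15.2 ± 2.81% of CpG-rich others, and a peak on 1 side only at 32.6 ± 2.77% and 30.7 ± 0.751%, which differed by less than their spread. Over all others these shares were 11.8 ± 1.5% and 19.8 ± 0.985%. The arrangement of H3K4me1 varied between lists: it was the same in all 3 at 210 pairs, of which 86 had a peak and the rest had none in any list. Peaks on both sides with free starts were found in all 3 lists at 13 pairs, and a single peak over both starts at 26.

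**Figure D4:**
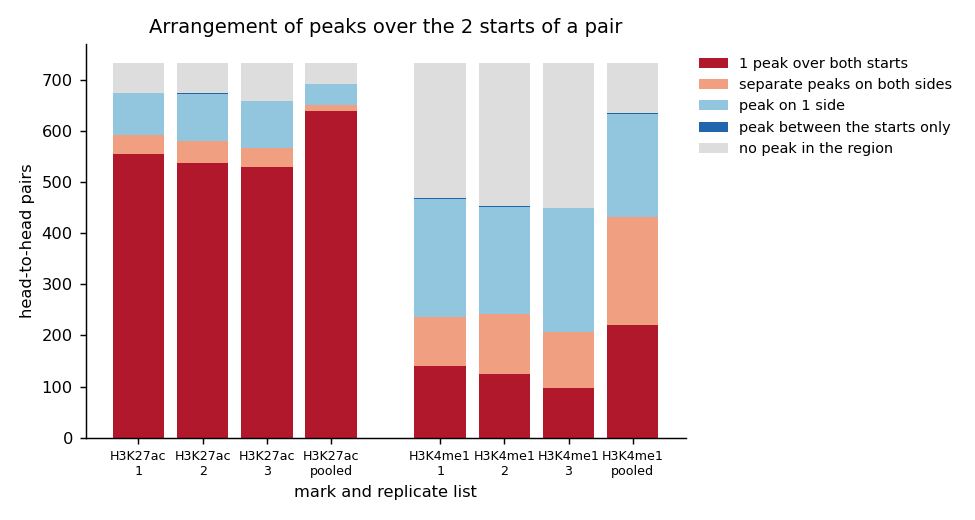
Stacked bars count the 734 head-to-head pairs by the arrangement of peaks in each replicate list and in the pooled call of each mark (x axis), with the number of pairs on the y axis. A single H3K27ac peak covered both starts at 529 to 556 pairs in the replicates and at 639 in the pooled call, and a single H3K4me1 peak at 97 to 141 and 221.

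A larger distance between the starts went with fewer shared H3K27ac peaks. A single peak covered both starts at 79.3 ± 0.577% of pairs under 100 bp, 75.1 ± 3.61% from 100 bp to less than 300 bp and 57.3 ± 1.12% at 300 bp or more (SD, n = 3 lists). A wider gap needs a wider peak to be bridged, and the median widths were 2202 ± 242, 2415 ± 99.1 and 2174 ± 375 bp. Pairs from 100 bp to less than 300 bp had wider peaks than pairs under 100 bp in every list. Pairs at 300 bp or more kept no constant order to either. CpG content also moved with the distance: both starts were CpG-rich at 87.2%, 82.8% and 53% of the pairs in the same order, and among these CpG-rich pairs the shares with a single H3K27ac peak were 82.8 ± 0.783%, 79.3 ± 3.33% and 75.2 ± 2.97%, a smaller range. Presence of H3K27ac was 92.5 ± 1.25%, 91.8 ± 1.91% and 86.4 ± 0.751% in the same order, and that of H3K4me1 63.5 ± 0.458%, 63.2 ± 2.23% and 57.6 ± 6.19%. The share of pairs with H3K4me1 on both sides and free starts was 14.5 ± 2.1%, 13.7 ± 1.06% and 9.61 ± 2.45%.

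Peaks at the pairs were wider than at other promoters for both marks. The median width of the peak with most overlap was 2458, 2359 and 2063 bp for H3K27ac in replicates 1, 2 and 3, against 1901, 1962 and 1720 bp elsewhere, a ratio of 1.23 ± 0.0532 (SD, n = 3). For H3K4me1 it was 1156, 1378 and 1175 bp, against 957, 1065 and 1010 bp, a ratio of 1.22 ± 0.0663. The ratio was above 1 in every list, with an exact sign-flip p of 0.25 for each mark (adjusted p = 0.288). Between CpG-rich starts the ratios were 1.17 and 1.19. With only peaks of −log10 p at least 1.3 they were 1.07 for H3K27ac and 1.1 for H3K4me1, the latter with an exact sign-flip p of 0.5, so its lists no longer all pointed the same way. The ratio of 1.01 between the marks (exact permutation p = 1) fell on either side of 1 under other settings, with 0.927 and an exact permutation p of 0.1, the smallest possible, for 250 bp flanks, so no difference between the marks is read from it.

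Coverage, the deposited pileup divided by the mean coverage of the genome at that depth, differed little. The median H3K27ac peak at the pairs reached 12.3, 12.5 and 13.7 times the genome mean in replicates 1, 2 and 3, against 11.4, 11.6 and 12.3 elsewhere. The ratio was 1.09 ± 0.0189 (SD, n = 3), and 1.06 between CpG-rich starts (exact sign-flip p = 0.25, adjusted p = 0.288). For H3K4me1 the medians were 8.97, 8.32 and 9.47 against 9.15, 8.58 and 8.83, higher at the pairs in 1 of 3 lists (ratio 1.01 ± 0.0575, exact sign-flip p = 1), and the direction turned under several settings. The local background that the authors' fold enrichment implies was 3.86 ± 0.156 times the genome mean at the H3K27ac peaks of the pairs and 3.64 ± 0.0755 at those of the others. It was 2.79 ± 0.135 and 2.78 ± 0.0907 at the H3K4me1 peaks. This value is back-calculated from a local background that the peak caller does not let fall below its genome-wide level. It therefore does not show by itself that the IgG signal at these promoters was raised. The part of IgG in the calls was not tested. Of the H3K27ac peaks chosen at the pairs, 85.1 ± 2.35% had −log10 p of at least 1.3, and of the H3K4me1 peaks 31.9 ± 4.32%, so the H3K4me1 calls were the weaker ones.

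The pairs varied widely among themselves. The width of the H3K27ac peak ran from 163 to 25562 bp in replicate 1, with quartiles of 1479 and 3934 bp, and its coverage from 4.26 to 34.5 times the mean with quartiles of 10.5 and 14.1. The widest peaks were not the highest. The 5 pairs with the widest H3K27ac peaks by their lowest replicate were Cep170/Sdccag8, Srsf11/Lrrc40, Hist1h2ae/Hist1h2bg, Hist1h2bf/Hist1h2ad and Gen1/Smc6. At Cep170/Sdccag8, genes of 2 centrosomal proteins with starts 593 bp apart, the H3K27ac peak was 25562, 17145 and 16879 bp wide in replicates 1, 2 and 3, with coverage of 10.1, 11.4 and 12.2. H3K4me1 there formed separate peaks on both sides in all 3 lists. Srsf11 encodes a splicing factor, and its pair with Lrrc40 had H3K27ac over 16105, 13664 and 10549 bp and H3K4me1 on both sides with free starts in every list. The 2 histone pairs shared the same peaks, of 15775, 9275 and 10386 bp, and are not independent. Gen1, a Holliday junction resolvase, and Smc6, of the SMC5/6 complex, had H3K27ac over 12033, 9108 and 12104 bp with coverage of only 6.76, 7.51 and 7.58.

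The highest coverage was found at Hjurp/Trpm8, with starts 28 bp apart. Hjurp is the chaperone of the centromeric histone CENP-A and Trpm8 a cold-sensing ion channel. H3K27ac reached 34.5, 31.7 and 35.2 times the mean and H3K4me1 29, 28.6 and 28. The lowest H3K27ac value was 31.7 here and 20.9 at the next pair, and the lowest H3K4me1 value 28 here and 14.4 at the next. The implied background was also high at this pair, at 13.9 to 17.7 times the genome mean over the 6 lists, so the authors' fold enrichment was 1.71 to 1.86. The next highest for H3K27ac were Rita1/Ddx54, Mrps12/Sars2, Sqstm1/Mgat4b and Mrps18b/Ppp1r10. At these 4 pairs the implied H3K27ac background was raised too, at 4.43 to 8.61 times the genome mean, against a median of 3.86 over the pairs. Their fold enrichment was 2.17 to 2.82, against a median of 2.08, so part of their high coverage went with high background. Mrps12 and Mrps18b encode mitochondrial ribosomal proteins, Sars2 the mitochondrial seryl-tRNA synthetase, and Sqstm1 the autophagy receptor p62. Mrps18b/Ppp1r10 had 18.8, 21.5 and 19 times the mean over 7272, 4234 and 6212 bp, and no H3K4me1 in any replicate. Sqstm1/Mgat4b had 19.5, 21.1 and 19.8 over 4873, 4935 and 5391 bp. For H3K4me1 the next were Sptbn4/Blvrb with 14.8, 14.4 and 14.8, E4f1/Pgp, Rnft2/2410131K14Rik and Tsc2/Nthl1. All 4 also had H3K27ac in all 3 replicates.

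Of the 70 pairs with H3K27ac in all 3 lists and no H3K4me1, those with the highest coverage in the pooled H3K27ac call included Rita1/Ddx54, Cdk5/Slc4a2, Mrps18b/Ppp1r10 and Actn3/Zdhhc24. Rita1/Ddx54 had H3K27ac coverage of 20.9, 26 and 24.1 over 1659, 1515 and 1583 bp. Ddx54 is an RNA helicase, and its promoter gap holds the 2 Sp1 boxes shown above. Actn3, the alpha-actinin of fast skeletal muscle fibres, shares its promoter with the palmitoyltransferase gene Zdhhc24 at 759 bp, and had narrow peaks of 657, 440 and 861 bp on 1 side only. Cdk5/Slc4a2 and Mrps18b/Ppp1r10 had an H3K4me1 peak in the pooled call, of 326 and 161 bp. The only pair with H3K4me1 in 3 lists and H3K27ac in none was Ppp1r3d/Fam217b, with starts 52 bp apart in the CpG-dense gap shown above. Its H3K4me1 peaks were 1020, 242 and 1129 bp wide with coverage of 11.7, 10.8 and 10.7. Ppp1r3d is a glycogen-targeting subunit of protein phosphatase 1. The pooled H3K27ac call, however, had a peak of 739 bp there.

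Of all 734 pairs, 95 had no CpG-rich start and 74 held a predicted or Rik gene. The 29 pairs with no peak in any replicate list included 20 without a CpG-rich start and 5 with a predicted or Rik gene, and 25 had none in the pooled calls either. Of these 25, the 8 with the shortest gaps were Best1/Rab3il1, Kctd19/Lrrc36, Dgcr2/Tssk2, Il11/Tmem190, Tango2/Arvcf, Patl2/Terb2, Zfp558/Mbd3l1 and Nmur1/Tex44, with starts 36 to 101 bp apart. Best1 is the bestrophin channel of the retinal pigment epithelium, Tssk2 a kinase of spermatids, and Terb2 a meiotic telomere protein. Tango2/Arvcf was the only one of the 8 with a CpG-rich start. Named after their values were seen, Nr2e1/Ostm1, Smc1b/Ribc2, Il17rb/Chdh, Nrg4/Tmem266 and Lyzl4/Vipr1 had 2 CpG-rich starts and no peak in a replicate list, but the pooled H3K4me1 call had peaks of 660 bp at Nrg4/Tmem266 and 337 bp at Lyzl4/Vipr1. Nr2e1 is a nuclear receptor of neural stem cells and Smc1b the meiotic cohesin subunit. The remaining 3 pairs of this kind were histone pairs. No peak means only that none was called at this depth.

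Well-known pairs were examined next, from a list of genes known for this arrangement, 20 of whose 36 genes were members by the gene-level starts used here. All 10 of these pairs had H3K27ac in all 3 replicates and 6 had H3K4me1 in all 3, where 85.6% and 40.5% of all pairs did. Of the 16 genes of the list outside pairs, 14 had H3K27ac and 5 had H3K4me1 in all 3. Brca1, of homologous recombination, faces Nbr1, an autophagy receptor, across 194 bp. Its H3K27ac coverage was 19.2, 21.1 and 18.4 times the mean over 1730, 2860 and 3216 bp, and no replicate had H3K4me1 there, although the pooled call had a peak of 423 bp. Atm, the kinase that signals double-strand breaks, faces Npat, a regulator of histone gene transcription, across 307 bp. It had H3K27ac of 9.54, 12.1 and 11.3 and H3K4me1 of 6.77, 7.06 and 11.9. Mcm4, a subunit of the replicative helicase, and Prkdc, the catalytic subunit of DNA-PK, had 9.27, 10.4 and 15.3, with H3K4me1 in all 3 as well. Tsc2, the growth regulator tuberin, faces the DNA glycosylase gene Nthl1 across 50 bp. H3K27ac was 11.3, 16.3 and 11.8 there and H3K4me1 11.8, 13.5 and 15.7. The median coverage over the pairs was 12.8 for H3K27ac and 8.92 for H3K4me1, so the heights of the 2 marks are not equated. Mrps12/Sars2 had H3K27ac of 19.6, 24.3 and 19.7, and H3K4me1 in replicate 3 only. Hscb/Chek2, with the checkpoint kinase Chek2, had H3K27ac of 12.4, 14.8 and 16.8, and H3K4me1 in replicate 1 only. Gart/Son had H3K4me1 in replicates 1 and 2, and Lig4/Abhd13, with the ligase of end joining, had both marks in all 6.

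DNA repair and replication genes had the next largest share of members among the functional lists after the core histones. Of 98 genes, 32 (32.7%) were head-to-head genes, where 6.96% of all coding genes were. The list was written with the literature on these pairs in view, so this share is a description. Among its 32 pairs, 29 had H3K27ac in all 3 replicates and 19 had H3K4me1 in all 3, each of the 19 with both marks in all 6. Over all pairs the shares were 85.6% and 40.5%. Of 66 repair genes outside pairs 51 had H3K27ac and 27 had H3K4me1 in all 3. The 3 pairs that missed H3K27ac in a list were Poll/Gm17018, Rad54l/Pomgnt1 and Pinlyp/Xrcc1, none of which had a CpG-rich start. Pinlyp/Xrcc1, with the scaffold of single-strand break repair, had H3K27ac in replicate 1 only, at 9.8 times the mean, and Rad54l/Pomgnt1 had 13 and 10.7 in replicates 1 and 2. Among the highest by mean were Brca1/Nbr1, Pole3/4933430I17Rik and Toe1/Mutyh, chosen after their values were seen. Their implied H3K27ac background was 2.15 to 8.65 times the genome mean over the 3 lists. Pole3, a histone-fold subunit of DNA polymerase epsilon, had 21.8, 17.4 and 12, so its replicates differed by more than most. Emc3/Fancd2, with the Fanconi anaemia gene Fancd2, had 7.52, 10.3 and 6.75, and both Pms1 pairs, which share 1 promoter, had 6.08, 7.47 and 7.9. Efcab11/Tdp1 resembled Brca1/Nbr1 in having H3K27ac in all 3, of 9.99, 12.5 and 16.2, and no H3K4me1 in any replicate.

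**Figure D5:**
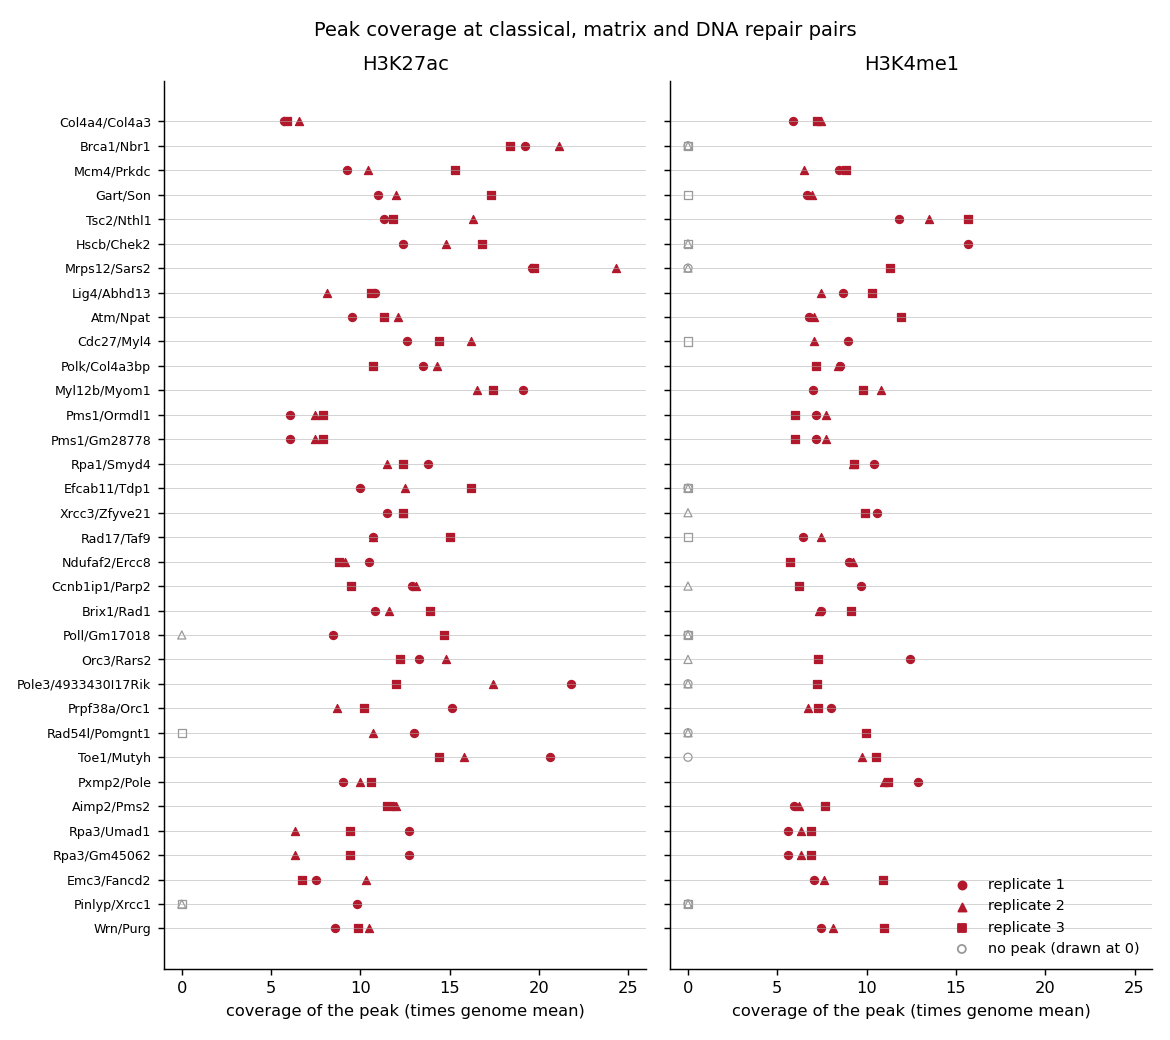
Each row is a pair from the lists of classical, matrix and smooth muscle, and DNA repair and replication genes, a few left out, and the x axis gives the coverage of its H3K27ac (left) or H3K4me1 (right) peak as times the genome mean, with 1 symbol per replicate and open grey symbols at 0 where no peak was called. H3K27ac was called in every replicate at all rows but Poll/Gm17018, Rad54l/Pomgnt1 and Pinlyp/Xrcc1, and Brca1/Nbr1 had no H3K4me1 symbol above 0.

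Of the matrix and smooth muscle genes, 5 of 174 (2.87%) were head-to-head genes, in 4 pairs, where 6.96% of all coding genes were. Col4a4 and Col4a3 encode collagen IV chains of specialised basement membranes and face each other across 72 bp. Neither start was CpG-rich. H3K27ac there was low but present in all 3 lists, at 5.74, 6.58 and 5.89 times the mean over 3262, 3050 and 1494 bp. H3K4me1 had a coverage of 5.88, 7.42 and 7.21, and was 881, 6606 and 3743 bp wide. All 6 calls were weak, with −log10 p of 1.02 to 1.19, so none would pass the stricter cutoff of 1.3. Myl12b, a regulatory myosin light chain, faces Myom1, a sarcomeric M-band protein, across 425 bp, and had strong H3K27ac of 19.1, 16.5 and 17.4 over 6570, 7436 and 6802 bp. Its H3K4me1 was 7.01, 10.8 and 9.8. Cdc27/Myl4 paired the anaphase-promoting complex gene Cdc27 with an atrial and embryonic myosin light chain across 43 bp, and had H3K27ac of 12.6, 16.2 and 14.4. H3K4me1 was present there in replicates 1 and 2 only. Polk/Col4a3bp entered by its name, since Col4a3bp encodes a ceramide transfer protein and not a collagen, and had 13.5, 14.3 and 10.7. The mark over such a shared promoter cannot be assigned to 1 of the 2 genes.

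Core histone genes had the largest share of members of the functional lists, 27 of 67 (40.3%), in 14 pairs that mostly joined an H2a to an H2b gene. Of these, 11 had H3K27ac in all 3 replicates and 7 had both marks in all 6, where 85.6% and 38.6% of all pairs did. Of the 35 histone genes among the other promoters, which leave out genes touching a head-to-head region, 32 had H3K27ac in all 3 and 25 had both marks in all 6. The remaining 3 pairs, Hist1h2bq/Hist1h2ao, Hist1h2ap/Hist1h2br and Hist1h2ba/Hist1h2aa, had no peak in any replicate list. Hist1h2ba and Hist1h2aa encode histone variants of the testis. The genes of these clusters are nearly identical in sequence, so reads may not be placed with certainty among them, and these values are uncertain.

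The remaining lists held 2 to 44 pairs each. Mitochondrial genes had 45 of 219 members (20.5%), and 42 of their 44 pairs had H3K27ac in all 3 lists while 17 had H3K4me1 in all 3. Translation and polymerase genes had 25 of 166 (15.1%), with H3K27ac in all 3 lists at 24 of 24 pairs and H3K4me1 in all 3 at 7. Proteasome and ubiquitin genes had H3K27ac at 18 of 19 pairs and H3K4me1 at 6, and cell cycle genes at 13 and 4 of 14. RNA splicing genes had H3K27ac at 13 of 18 and H3K4me1 at 8, trafficking genes at 15 and 9 of 17, and zinc finger genes at 20 and 10 of 23. For comparison, 85.6% of all pairs had H3K27ac and 40.5% had H3K4me1 in all 3. Among other promoters, H3K27ac in all 3 was found at 145 of 173 mitochondrial, 121 of 141 translation and 111 of 152 proteasome genes. It was found at 63 of 87 cell cycle, 129 of 171 trafficking and 286 of 425 zinc finger genes. RNA splicing, at 61 of 75, was the only one of these lists with a higher share there than in pairs. At the other end, 2 of 1565 genes of sensory receptors, keratins and defensins (0.128%) were head-to-head genes, and both of their pairs had H3K27ac in all 3 lists. Outside pairs, 3 of 1563 such genes did.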

How the data were processed

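Broad peak lists of 3 H3K27ac and 3 H3K4me1 ChIC-seq libraries and 1 pooled list per mark were used. The submitters' processing notes name cutadapt, Bowtie2, MACS2 and GRCm38.p5. Per the file headers, the authors called broad regions with MACS 2.2.7.1 on paired-end fragments, with p cutoffs of 0.05 and 0.1 for strong and weak regions, against IgG, the larger library scaled to the smaller. IgG replicate 1 was the control of H3K27ac replicate 1, IgG replicate 3 that of replicate 3 of both marks, and IgG replicate 2 that of the other 3 lists. The deposited pileup is a coverage signal, the deposited fold enrichment a ratio to local background, and the deposited p-value is given as −log10. Pileup was divided by the genome mean coverage, fragments times fragment length over the effective genome of 2300000000 bp. Implied background was (pileup + 1)/fold enrichment − 1 on that scale. Gene starts were the outermost annotated starts of GENCODE release 21, and alternative starts were not used. Other promoters were windows of 1 kb either side of a start; 18 whose window touched a head-to-head region were left out. Of 830643 autosomal peaks, 0 ended beyond the chromosome of the reference. The 5 measures gave 15 exact tests, adjusted by Benjamini-Hochberg. Pairs named singly held a gene of 3 lists, ranked highest by coverage or width, or had 1 mark or none. Some pairs that this rule names are not reported here, in the text or the plot, but stay in every count. Profiles, arrangements and motifs over pairs with 2 CpG-rich starts were computed after seeing the data. Members, lists and tests were chosen with earlier results of these data known. The interval and test code was tested on simulated data. Python 3.11.15, numpy 2.4.6 and pandas 2.3.3 were used.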

Additional observations from a re-analysis of the deposited data

Results flagged for a closer look

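The course of the marks from the start to 1 kb downstream moved in opposite directions with the downstream point at 1 kb. Relative to other promoters, the start over downstream share was 1.31, 1.21 and 1.39 for H3K27ac and 0.853, 0.767 and 0.681 for H3K4me1, so that every H3K27ac list lay above 1 and every H3K4me1 list below it. The ratio between the marks was 1.7 (exact permutation p = 0.1, the smallest that 3 lists against 3 allow, adjusted p = 0.288). Between CpG-rich starts it was 1.52. With the downstream point at 2 kb the H3K4me1 ratio was 0.996 (exact sign-flip p = 1), that of H3K27ac 1.69 and the ratio between the marks again 1.7.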

How the results depend on the processing

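Of 266 alternative values of 17 results, 17 turned in direction. Of the rest, 11 were pooled values that moved by more than the replicate spread or counts that moved by over 1.5 times. The other 238 neither turned nor moved by these rules, but not all of them could turn, so 238 does not measure robustness. Counts have no direction, and the replicate block values equal the main values. Leaving out a replicate cannot turn the result of a mark whose lists all lay on the same side of no difference. Size was not always kept: the H3K27ac presence difference was 16.4 points between CpG-rich starts. The H3K4me1 start to downstream ratio was 0.996 with a point at 2 kb. The 17 that turned belonged to the width ratio between marks and the H3K4me1 coverage ratio; none of the other results turned under any alternative run. In the pooled calls, which have no test, the H3K4me1 presence difference was 35.2 points, that between marks 7.42, the start coverage difference 45.2 for H3K27ac and 9.92 for H3K4me1, the H3K4me1 width ratio 1.33, the H3K27ac start to downstream ratio 1.15, the pairs with both marks 626 and those with a single H3K27ac peak over both starts 639. The count with both marks was 30 with −log10 p of at least 1.3, 27 with 50% of the region covered and 79 with 250 bp flanks. The width ratio between marks, 1.01, became 0.975 with −log10 p of at least 1.3, 0.989 with coverage of at least 5 times the mean, 0.927 with 250 bp flanks, 0.998 with lengthened other windows, 0.978 with CpG-rich starts, 0.986 without predicted and Rik genes, 0.986 with the widest peak, 0.94 pooled, and 0.983 to 1.04 without single replicates. The H3K4me1 coverage ratio, 1.01, became 0.966 with −log10 p of at least 1.3, 0.997 with the coverage filter, 0.984 with 2 kb flanks, 0.992 with CpG-rich starts, 0.991 with these and each gene's own window (chosen after seeing the data), 0.993 with starts at most 300 bp apart, and 0.974 to 1.03 without single replicates. The causes were not tested.

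Same-numbered lists of the marks correlated by -0.00427, 0.33 and 0.395 in their deviations of covered share over the pairs, so the numbers were not taken to pair the samples. Lists called against the same IgG library correlated by 0.29 to 0.395. With the replicate block, the presence difference between marks was 16.4 points, with an exact sign-flip p of 0.25, the smallest possible. Because the larger library was scaled to the IgG depth of 3110985 to 3713369 fragments, the lowest coverage of a replicate peak was 1.03 to 1.08 scaled fragments.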
